A study of Homo sapiens with 12 samples.

Results

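Mitosis genes were followed in HPB-ALL and KOPTK1, established human T-lymphoblastic leukaemia (T-ALL) cell lines. Cells of each line carried shRNA against the RNP assembly factor SHQ1 or a control shRNA. The genes were taken by name as 48 G2/M cyclins, mitotic kinases, spindle checkpoint, kinetochore, spindle, cytokinesis and chromosome structure genes, and each of the 48 had a row among the 58288 genes listed in both deposited tables. RNA-Seq was performed on 12 libraries, 6 of each line. By the labels, 3 libraries of each line came from cells infected with a pLKO.1 lentivirus carrying shRNA against SHQ1 and 3 from cells infected with the same vector carrying shRNA against GFP, the control. All cells, the controls included, were selected with puromycin at 2 μg/mL. The labels place the drug within a 48 h culture, whereas the study's methods add it for a further 48 h after a first 48 h. Total RNA was depleted of rRNA. The columns of the tables are headed by numbers, 1 to 6 for KOPTK1 and 7 to 12 for HPB-ALL, which match no sample label, so a library could be assigned to its line but not to its shRNA. The comparison of SHQ1 shRNA with control shRNA was therefore not made here, and the mitosis genes were described library by library and compared between the lines. Both kinds of shRNA are mixed equally in each line by the labels and contribute to the spread within it. The labels do not say whether libraries of a group came from separate cultures, so p-values measure the spread between these libraries only.

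The total per library was 22884785 to 42842791 counts. T-lineage identity was checked with 8 markers (CD3D, CD3E, CD3G, CD7, CD5, CD2, LCK and ZAP70). All 8 were expressed, and their summed level was 1040 to 1114 RPKM in HPB-ALL and 999.8 to 1019 in KOPTK1. The oncogenes that distinguish the lines went against their labels in part. TLX3, the homeobox oncogene known for HPB-ALL, was at 0 to 0.0363 RPKM in the libraries labelled HPB-ALL, whereas TAL1, known for KOPTK1, was at 39.3 to 45.6 RPKM there and at 12.5 to 26.4 RPKM in the libraries labelled KOPTK1. LMO2, also known for KOPTK1, was at 0.96 to 2.51 RPKM in KOPTK1 and 0.0783 to 0.262 in HPB-ALL. Of these oncogenes only LMO2 was higher in the line it is known for. The line names used below therefore rest on the labels alone, and the identity of the lines was not settled by these markers. The libraries of each line fell into separate sets of 3, further apart in KOPTK1. On the first principal component over all tested genes (82.4% of the variance), libraries 4, 5 and 6 lay at -82.6 to -82.1, libraries 1, 2 and 3 at -29.3 to -29.1, HPB-ALL libraries 7, 8 and 9 at 60.1 to 60.9 and libraries 10, 11 and 12 at 50.9 to 51.3. Libraries 1, 2 and 3 also lay between the others in the T-cell adhesion gene CD2 (37.0 to 38.9 RPKM, against 55.5 to 59.7 in libraries 4, 5 and 6 and 12.8 to 15.0 in HPB-ALL), and in the B-lineage gene CD79A (23.9 to 24.6 RPKM, against 5.90 to 7.16 and 40.1 to 46.7). MS4A1, another B-lineage marker, did not exceed 0.0877 RPKM in any library. None of 4 myeloid markers reached 1 RPKM. The KOPTK1 ranges of TAL1 and LMO2 were split between the same sets. TAL1 was at 23.7 to 26.4 RPKM in libraries 1, 2 and 3 and 12.5 to 12.7 in libraries 4, 5 and 6. LMO2 was at 0.96 to 1.09 and 1.45 to 2.51 RPKM in these sets. Libraries 1, 2 and 3 were thus intermediate in both oncogenes, whereas TLX3 did not exceed 0.2925 RPKM in any library. The cause of the separation was not tested, and the results below are given with and without each set of libraries.

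Entry into mitosis is driven by CDK1 bound to B-type cyclins, which CDC25 phosphatases activate and which phosphorylates proteins that condense chromosomes and build the spindle. The spindle checkpoint, assembled from BUB and MAD proteins on kinetochores that have not attached to microtubules, restrains CDC20 and the anaphase-promoting complex until every chromosome is attached, after which securin and cyclin B are degraded and sister chromatids part. Most of these genes are transcribed mainly in G2 and M phase by complexes of B-MYB, MuvB and FOXM1 that act through the cell cycle genes homology region (CHR), usually TTTGAA or TTTAAA, often with CCAAT boxes bound by NF-Y nearby. Proliferating leukaemia cells express the whole set.

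Promoter sequences were available from RefSeq (GRCh38.p14) for 41 of the 48 genes, as 53 windows that run from 250 bases before to 50 bases after a transcription start. The genes with no window were AURKA, BUB3, TTK, TPX2, BIRC5, UBE2C and FOXM1. The letters CCAAT, read on either strand (CCAAT or ATTGG), occurred in 69.8% of the member windows and in 34.6% of all 35116 windows. TTTGAA, on either strand (TTTGAA or TTCAAA), occurred in 62.3% against 15.2%, and TTTAAA, which reads the same on both strands, in 26.4% against 12.2%. Windows with both a CCAAT and one of the CHR forms made up 54.7% of the member windows and 9.3% of all windows. Such matches are a description of the letters and not evidence of a bound site. The 110 bases before the RefSeq start are shown for 6 genes on which the comparison of the lines turned: CCNB1, HMMR, CDC20 and BUB1, which were among the genes most elevated in HPB-ALL, CCNA2, for which no difference was detected, and NCAPD2, which was higher in KOPTK1. Capitals mark these CCAAT and CHR letters on either strand, and each sequence runs 5′ to 3′ on the strand of its gene. The spans given for all 6 genes in the deposited tables, which follow another annotation, begin upstream of these starts.
CCNB1 (chr5:69167040-69167149, plus strand): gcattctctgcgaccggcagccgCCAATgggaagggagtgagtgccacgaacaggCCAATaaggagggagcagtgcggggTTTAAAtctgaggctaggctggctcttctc
HMMR (chr5:163460522-163460631, plus strand): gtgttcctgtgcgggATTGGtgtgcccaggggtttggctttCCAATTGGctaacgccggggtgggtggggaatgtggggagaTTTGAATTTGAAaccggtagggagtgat
CDC20 (chr1:43358871-43358980, plus strand): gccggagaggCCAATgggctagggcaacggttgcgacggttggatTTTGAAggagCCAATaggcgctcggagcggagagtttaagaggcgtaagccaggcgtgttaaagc
BUB1 (chr2:110678064-110678173, minus strand): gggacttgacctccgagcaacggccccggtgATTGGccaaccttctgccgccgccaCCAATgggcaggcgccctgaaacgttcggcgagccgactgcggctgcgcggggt
CCNA2 (chr4:121823884-121823993, minus strand): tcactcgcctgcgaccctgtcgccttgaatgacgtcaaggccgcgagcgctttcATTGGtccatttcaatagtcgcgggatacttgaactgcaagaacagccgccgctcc
NCAPD2 (chr12:6493992-6494101, plus strand): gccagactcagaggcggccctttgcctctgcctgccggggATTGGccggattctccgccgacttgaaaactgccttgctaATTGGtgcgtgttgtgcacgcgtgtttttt
Within these bases CCNB1 held CCAAT at -87 and -55 and TTTAAA at -30, counted from the start to the first base of the match. HMMR held TTTGAA at -28 and again at -22 in a direct repeat, with CCAAT at -69 overlapping ATTGG at -66. CDC20 held TTTGAA at -65 between CCAAT at -100 and -55. BUB1, CCNA2 and NCAPD2 held CCAAT boxes but neither TTTGAA nor TTTAAA in this stretch, so genes that differed between the lines in either direction, and one for which no difference was detected, shared the CCAAT letters. Other forms of the CHR were not searched, and the stretch ends at the start, so a CHR in these promoters is not excluded.

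Mitosis genes were strongly expressed in all 12 libraries. Levels are given in RPKM, computed here from the deposited counts, TMM library sizes and summed exon length, so that they can be compared between genes. The mean level over the 12 libraries ranged from 10.5 RPKM for CDC25C, a phosphatase that activates CDK1, to 131 RPKM for TOP2A, the DNA topoisomerase that untangles replicated chromosomes. After TOP2A, the most abundant were TPX2, which nucleates spindle microtubules and activates Aurora A, and MKI67, the proliferation antigen that coats mitotic chromosomes. The least abundant after CDC25C were CENPA, the centromeric histone, and MAD2L1, the checkpoint protein MAD2. The median over the 48 genes was 37.3 RPKM, against 4.43 RPKM over the 27834 genes tested, and 34 of the 48 lay above the 90th percentile of the tested genes. No mitosis gene had fewer than 288 counts in any library. Fractional counts, which arise where a read is shared among features or positions, were present for 37 of the 48 genes, so their values may include reads shared with related sequences.

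**Figure D1:**
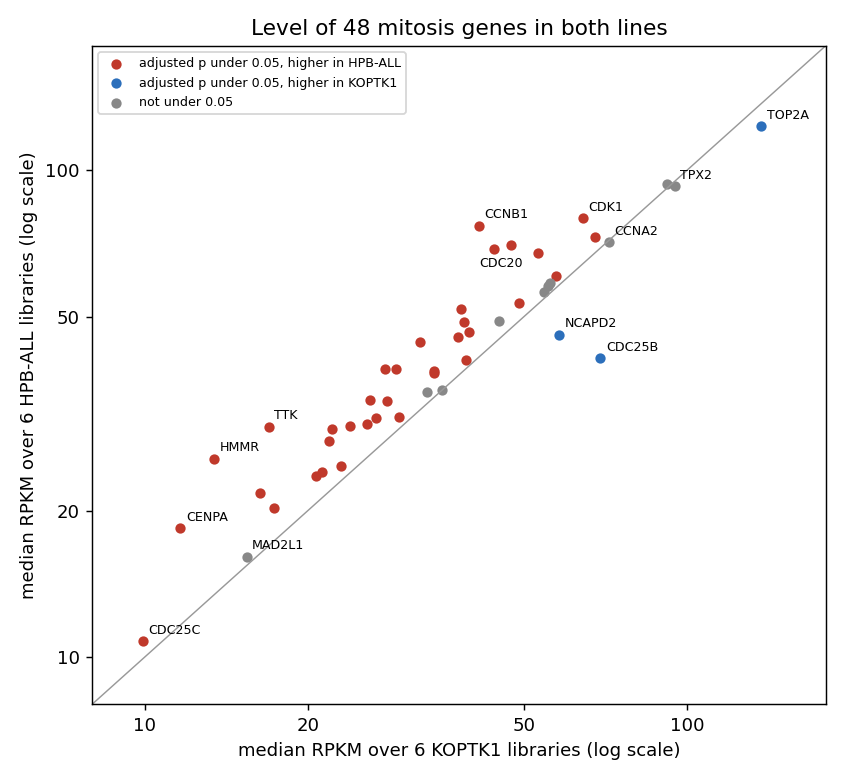
Median level of the 48 mitosis genes over the 6 KOPTK1 libraries (horizontal) and the 6 HPB-ALL libraries (vertical), in RPKM on log scales, with the line of equal level; colours give the edgeR call at adjusted p under 0.05. Most points lie on or above the line, CDC25B and NCAPD2 lie clearly below it, and the largest distances above it belong to CCNB1, HMMR and TTK.

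HPB-ALL and KOPTK1 differed in most mitosis genes, and mostly towards higher levels in HPB-ALL. In bulk RNA, a smaller share of cells in mitosis and less RNA of these genes per cell cannot be told apart. All 48 genes passed the filter on low counts and were tested with edgeR's quasi-likelihood test. At a Benjamini-Hochberg adjusted p under 0.05 over all tested genes, 38 of the 48 (79.2%) differed, where 63.9% of all tested genes did. This total has to be read with expression level in mind, because among the 11553 tested genes with a mean of at least 10 CPM, a level that all 48 exceeded, 77.9% differed. The direction was less even: 35 genes (72.9%) were higher in HPB-ALL, against 31.3% of all tested genes and 46.0% of those at 10 CPM or more, and 3 genes (6.25%) were higher in KOPTK1, against 32.6% and 31.9%. The median log2 difference (HPB-ALL minus KOPTK1) was 0.20 over the 48 genes, -0.02 over all tested genes and 0.07 over those at 10 CPM or more. Most differences were small. A difference past 1.5-fold was seen in 6 of the 48 genes, against 29.1% of all tested genes: CCNB1, HMMR, TTK, CENPA and CDC20 were higher in HPB-ALL and CDC25B was higher in KOPTK1. The libraries of the lines did not overlap in 32 mitosis genes (30 higher in HPB-ALL and 2, CDC25B and NCAPD2, higher in KOPTK1), where 43.8% of all tested genes did not overlap. The shares for overlap and for 1.5-fold were not computed at 10 CPM or more, so they are not matched for expression level. Counts within the small role groups below have to be read beside the shares called at 10 CPM or more (46.0% and 31.9%).

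**Figure D2:**
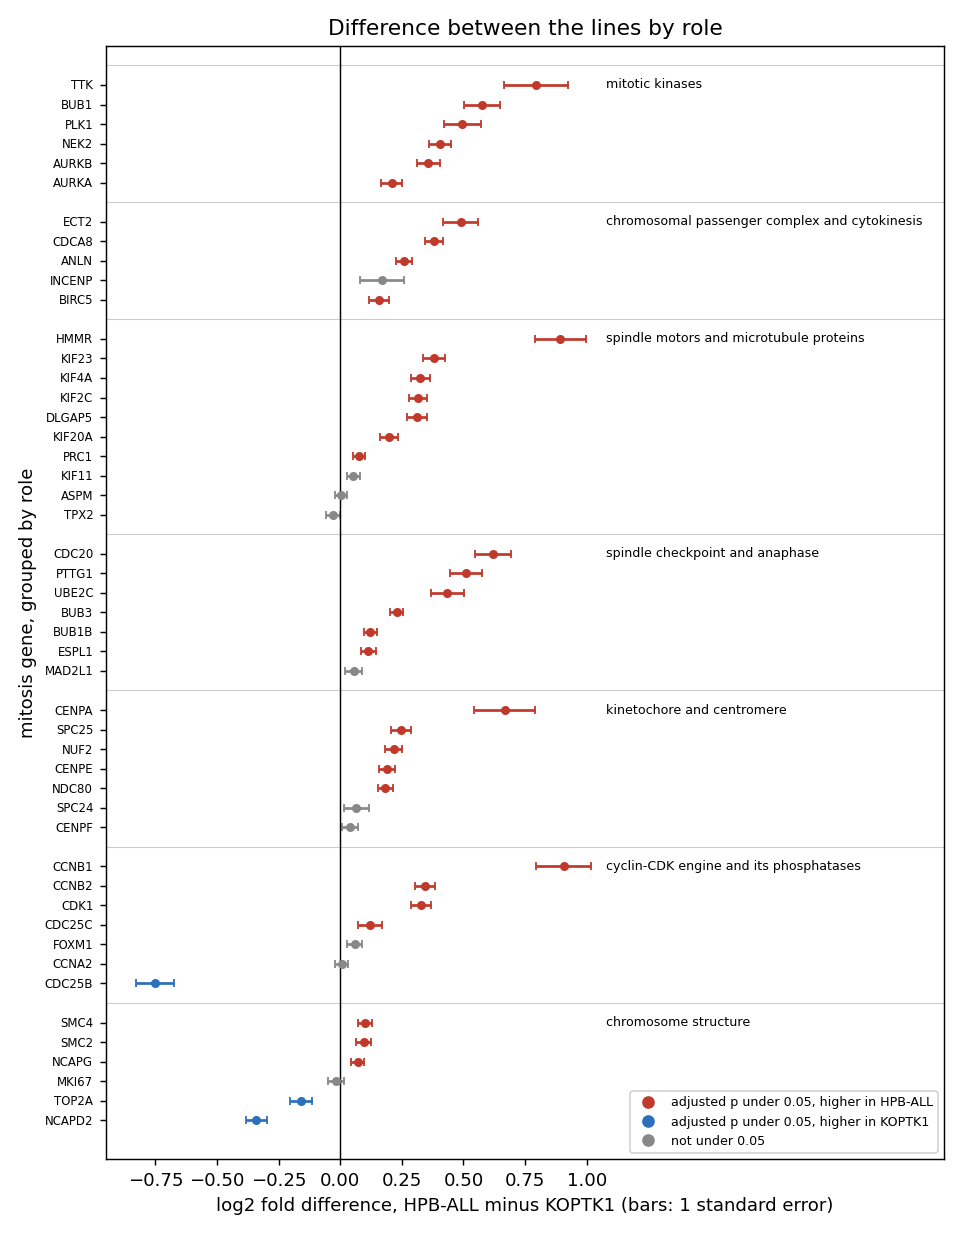
Log2 fold difference between HPB-ALL and KOPTK1 (horizontal, positive where HPB-ALL was higher) for each mitosis gene, grouped by role, with bars of 1 standard error from edgeR and colours for the call at adjusted p under 0.05. All 6 mitotic kinases lie to the right of 0, and the chromosome structure genes lie on both sides of it.

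Among the cyclins, CDK1 and its regulators, the B-type cyclins and their kinase were higher in HPB-ALL, cyclin A did not differ detectably and a phosphatase went the other way. Of 7 genes, 4 were higher in HPB-ALL, 1 in KOPTK1 and 2 did not pass the test. CCNB1 (ENSG00000134057.14, chr5:69167010-69178245 in hg38), encoding cyclin B1, was at 74.4 to 78.2 RPKM in HPB-ALL (median 77.0). In KOPTK1 it was at 48.8, 48.4 and 49.4 RPKM in libraries 1, 2 and 3 and at 32.0, 34.2 and 32.0 in libraries 4, 5 and 6. The lines did not overlap, and the log2 difference of 0.91 ± 0.11 (SE, 6 libraries a line; edgeR adjusted p = 1.1e-05) was the largest among the mitosis genes. CDK1, the kinase that cyclin B activates, was at 77.4 to 85.3 RPKM in HPB-ALL (median 79.6) and 60.7 to 67.9 in KOPTK1 (median 64.4), a log2 difference of 0.33 ± 0.04 (edgeR adjusted p = 8.66e-06). CCNB2, the second mitotic cyclin B, was at 28.5 to 31.0 RPKM in HPB-ALL and 21.8 to 24.9 in KOPTK1 (log2 difference 0.34 ± 0.04). CCNA2, cyclin A2, which acts from S phase to early mitosis, overlapped between the lines. It was at 70.7 to 75.9 RPKM in HPB-ALL (median 71.3) and 70.3 to 73.2 in KOPTK1 (median 71.7), and the log2 difference was 0.01 ± 0.03 (edgeR adjusted p = 0.854). FOXM1, the forkhead factor that activates many G2/M genes, was at 55.2 to 60.8 RPKM in HPB-ALL and 53.5 to 56.9 in KOPTK1 and did not pass the test (log2 difference 0.06 ± 0.03, edgeR adjusted p = 0.0956).

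CDC25B, a phosphatase that activates CDK1 before mitotic entry, was the mitosis gene with the largest excess in KOPTK1. It was at 39.5 to 43.5 RPKM in HPB-ALL (median 41.1), at 60.7, 60.6 and 60.5 in libraries 1, 2 and 3 and at 78.6, 77.8 and 80.0 in libraries 4, 5 and 6. The lines did not overlap, and the log2 difference was -0.75 ± 0.08 (edgeR adjusted p = 2.27e-06). CDC25C, its relative that acts later in the same step, was at 10.4 to 11.6 RPKM in HPB-ALL and 9.47 to 10.9 in KOPTK1. The libraries overlapped and the call was marginal (log2 difference 0.12 ± 0.05, edgeR adjusted p = 0.044): it was lost when any 1 of libraries 1, 2, 3, 6, 7, 9, 10 and 11 was left out.

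Mitotic kinases were the role group with the largest median difference (log2 0.45), and all 6 were higher in HPB-ALL. TTK (MPS1), the kinase that starts the spindle checkpoint at kinetochores, was at 28.0 to 31.9 RPKM in HPB-ALL (median 29.7). In KOPTK1 it was at 20.6, 21.4 and 20.8 RPKM in libraries 1, 2 and 3 and at 13.3, 12.9 and 13.3 in libraries 4, 5 and 6, and the log2 difference was 0.79 ± 0.13 (edgeR adjusted p = 0.000111). BUB1, the kinase that marks centromeres and recruits checkpoint proteins, was at 67.1 to 72.7 RPKM in HPB-ALL (median 70.2), 51.9 to 53.6 in libraries 1, 2 and 3 and 40.3 to 42.7 in libraries 4, 5 and 6 (log2 difference 0.58 ± 0.07, edgeR adjusted p = 1.37e-05). No library of either line crossed into the range of the other for these genes. PLK1, the polo-like kinase required for centrosome maturation and mitotic entry, was at 38.4 to 46.2 RPKM in HPB-ALL and 24.3 to 32.5 in KOPTK1 (log2 difference 0.50 ± 0.08). NEK2, a centrosome-splitting kinase, differed by 0.41 ± 0.05 and AURKB, the catalytic subunit of the chromosomal passenger complex, by 0.36 ± 0.05 on the log2 scale. AURKA, the centrosomal Aurora kinase that TPX2 activates, had the smallest difference of the kinases: 19.5 to 21.8 RPKM in HPB-ALL and 16.7 to 19.4 in KOPTK1 (log2 difference 0.21 ± 0.04).

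**Figure D3:**
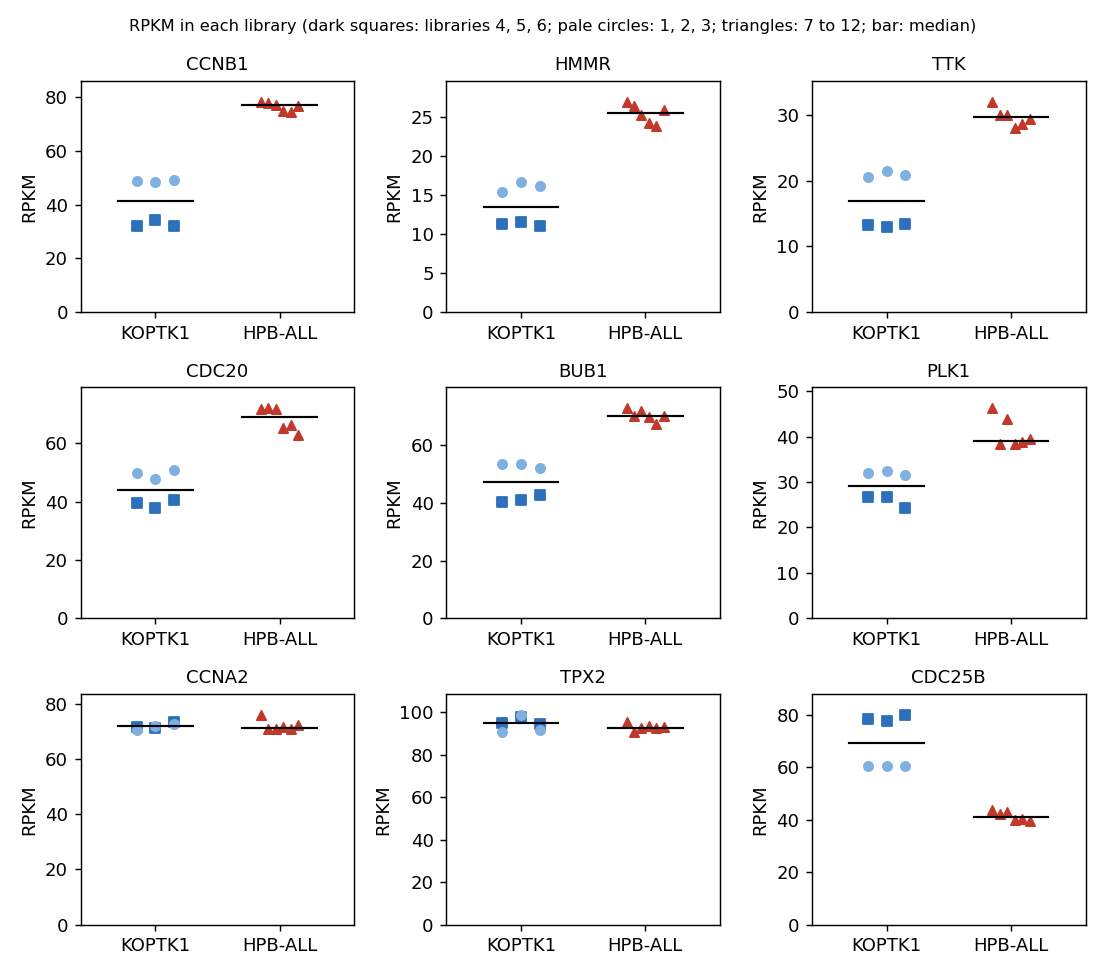
Level in RPKM (vertical, from 0) of 9 mitosis genes in each library of KOPTK1 (dark squares for libraries 4, 5 and 6, pale circles for 1, 2 and 3) and HPB-ALL (triangles), with the median of each line as a bar. In CCNB1, HMMR, TTK, CDC20, BUB1, PLK1 and CDC25B the pale circles sit between the dark squares and the triangles, whereas in CCNA2 and TPX2 the libraries of both lines overlap.

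Among the spindle checkpoint and anaphase genes, 6 of 7 were higher in HPB-ALL and MAD2L1 did not pass the test. The largest differences lay with genes of anaphase onset. CDC20, the co-activator that the checkpoint holds inactive, was at 71.8, 71.9, 71.7, 65.3, 66.3 and 62.8 RPKM in HPB-ALL libraries 7 to 12. In KOPTK1 it was at 47.7 to 50.7 in libraries 1, 2 and 3 and at 38.0 to 40.5 in libraries 4, 5 and 6, so that the lines were well apart (log2 difference 0.62 ± 0.07, edgeR adjusted p = 7.61e-06). PTTG1, securin, the inhibitor of separase that CDC20 and the anaphase-promoting complex destroy, was at 43.2 to 48.7 RPKM in HPB-ALL and 28.1 to 35.2 in KOPTK1 (log2 difference 0.51 ± 0.06). UBE2C, the ubiquitin-conjugating enzyme of that complex, was at 48.0 to 53.5 RPKM in HPB-ALL and 32.4 to 44.2 in KOPTK1 (log2 difference 0.43 ± 0.07). ESPL1, separase itself, which cleaves cohesin, differed by only 0.11 ± 0.03 (edgeR adjusted p = 0.00386). BUB3 and BUB1B (BUBR1), partners in the checkpoint complex that binds CDC20, also differed little. BUB3 was at 30.3 to 31.9 RPKM in HPB-ALL and 25.3 to 27.2 in KOPTK1 (log2 difference 0.23 ± 0.03), and BUB1B at 51.9 to 53.8 and 46.7 to 50.5 (0.12 ± 0.03). MAD2L1 overlapped, at 15.3 to 16.6 RPKM in HPB-ALL and 14.3 to 16.2 in KOPTK1 (log2 difference 0.05 ± 0.03, edgeR adjusted p = 0.177).

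At the kinetochore, 5 of 7 genes were higher in HPB-ALL, by small margins except for the centromeric histone. CENPA was at 21.2, 21.5, 15.8, 19.4, 17.5 and 17.0 RPKM in HPB-ALL libraries 7 to 12, at 12.8 to 14.6 in libraries 1, 2 and 3 and at 8.72 to 10.5 in libraries 4, 5 and 6. Its libraries were the most widely spread of the mitosis genes within each line, yet the lines did not overlap (log2 difference 0.67 ± 0.12, edgeR adjusted p = 0.00033). The NDC80 complex, which holds microtubule ends, has 4 subunits, all among the genes followed. NDC80 differed by 0.18 ± 0.03, NUF2 by 0.22 ± 0.03 and SPC25 by 0.25 ± 0.04 on the log2 scale, all higher in HPB-ALL, whereas SPC24 did not pass the test (0.07 ± 0.05, edgeR adjusted p = 0.265), with 30.6 to 37.7 RPKM in HPB-ALL and 31.0 to 35.0 in KOPTK1. CENPE, the kinesin that carries chromosomes to the spindle equator, was at 23.1 to 24.7 RPKM in HPB-ALL and 19.6 to 22.4 in KOPTK1 (log2 difference 0.19 ± 0.03). CENPF, a large protein of the outer kinetochore, was at 53.8 to 58.5 and 52.6 to 57.7 RPKM and did not pass the test (edgeR adjusted p = 0.283).

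Spindle motors and microtubule proteins divided into genes that were higher in HPB-ALL (7 of 10) and 3 that did not pass the test. HMMR, the hyaluronan-mediated motility receptor, which binds spindle microtubules in dividing cells, was at 26.9, 26.4, 25.2, 24.3, 23.9 and 25.9 RPKM in HPB-ALL libraries 7 to 12. It was at 15.3 to 16.7 RPKM in libraries 1, 2 and 3 and at 11.5 at most in libraries 4, 5 and 6, without overlap (log2 difference 0.89 ± 0.10, edgeR adjusted p = 5.66e-06). The kinesins KIF23, which bundles the central spindle, KIF4A, which organises chromosomes and midzone, and KIF2C, which depolymerises microtubules, differed by 0.38 ± 0.04, 0.33 ± 0.04 and 0.32 ± 0.04 on the log2 scale. DLGAP5, a kinetochore fibre protein, differed by 0.31 ± 0.04, the cytokinetic kinesin KIF20A by 0.20 ± 0.04 and the midzone crosslinker PRC1 by 0.08 ± 0.02. KIF11 (Eg5), the motor that separates the spindle poles, was at 55.6 to 59.6 RPKM in HPB-ALL and 54.0 to 57.8 in KOPTK1 (log2 difference 0.05 ± 0.03, edgeR adjusted p = 0.101). TPX2 was at 90.6 to 95.6 and 90.7 to 98.9 RPKM (log2 difference -0.03 ± 0.03), and ASPM, a spindle pole protein, at 34.3 to 36.4 and 34.0 to 36.0 RPKM (edgeR adjusted p = 0.87). The microtubule proteins thus covered nearly the whole span of differences seen towards HPB-ALL.

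Of the 5 genes of the chromosomal passenger complex and cytokinesis, 4 were higher in HPB-ALL. ECT2, the exchange factor that activates RhoA at the cleavage furrow, differed most (37.6 to 40.3 RPKM in HPB-ALL, 23.8 to 32.2 in KOPTK1, log2 difference 0.49 ± 0.07). CDCA8 (borealin) differed by 0.38 ± 0.04 and the contractile ring scaffold ANLN by 0.26 ± 0.03 on the log2 scale. BIRC5 (survivin), the subunit that brings the complex to centromeres, was at 34.9 to 39.8 RPKM in HPB-ALL and 32.1 to 35.6 in KOPTK1, ranges that overlapped slightly (log2 difference 0.16 ± 0.04, edgeR adjusted p = 0.00301). INCENP, the scaffold of the complex, did not pass the test. It was at 45.7, 45.8 and 29.6 RPKM in libraries 1, 2 and 3 and at 43.3 to 45.6 in libraries 4, 5 and 6, so that library 3 alone was low, and at 42.3 to 49.5 in HPB-ALL. The log2 difference of 0.17 ± 0.09 (edgeR adjusted p = 0.114) became 0.08 without library 3 (edgeR adjusted p = 0.089).

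Chromosome structure genes showed no common direction. Of 6 genes, 3 were higher in HPB-ALL, 2 in KOPTK1 and 1 did not pass the test, and the median log2 difference was 0.03. These counts lay near the shares of all tested genes at 10 CPM or more (46.0% higher in HPB-ALL and 31.9% in KOPTK1). The condensin ATPases SMC2 and SMC4 differed by 0.09 ± 0.03 and 0.10 ± 0.03, and the condensin I subunit NCAPG by 0.07 ± 0.03 (edgeR adjusted p = 0.033), each higher in HPB-ALL with overlapping libraries. NCAPD2, another subunit of the same complex, went the other way: it was at 45.6 to 46.8 RPKM in HPB-ALL, 53.9 to 54.9 in libraries 1, 2 and 3 and 61.1 to 64.0 in libraries 4, 5 and 6 (log2 difference -0.34 ± 0.04, edgeR adjusted p = 1.45e-05). Subunits of condensin I thus differed in direction in this fit. The calls of SMC2, SMC4 and NCAPG were lost when genes with a mean of at least 10 CPM set the scale. TOP2A was at 119 to 128 RPKM in HPB-ALL, 128 to 131 in libraries 1, 2 and 3 and 143 to 152 in libraries 4, 5 and 6 (log2 difference -0.16 ± 0.04, edgeR adjusted p = 0.00572). This call was lost without a filter on low counts (-0.11, edgeR adjusted p = 0.054) and without libraries 7, 8 and 9 (-0.12, edgeR adjusted p = 0.095). MKI67 was at 85.3 to 95.3 RPKM in HPB-ALL and 91.1 to 97.3 in KOPTK1, and the log2 difference was -0.02 ± 0.03 (edgeR adjusted p = 0.682).

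The calls near 0 depended on which genes set the scale. When library sizes were scaled on genes with a mean of at least 10 CPM, CCNA2, ASPM, TPX2 and MKI67 passed the test as slightly higher in KOPTK1 (log2 differences of -0.06, -0.06, -0.09 and -0.08), making 7 genes higher in KOPTK1 and 29 higher in HPB-ALL. CDC25C, PRC1, ESPL1, NCAPG, SMC2 and SMC4 no longer passed as higher in HPB-ALL. Without a filter the shift was towards HPB-ALL: MAD2L1, CENPF, KIF11 and FOXM1 passed as higher in HPB-ALL (0.11, 0.09, 0.11 and 0.11) and TOP2A no longer passed, which made 39 genes higher in HPB-ALL and 2 in KOPTK1. KIF11 and FOXM1 also passed with DESeq2. All mitotic kinases, CCNB1, CCNB2, CDK1, CDC20 and CDC25B kept their direction and call under both.

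The size of the larger differences depended most on which KOPTK1 libraries were used. Libraries 1, 2 and 3 lay between libraries 4, 5 and 6 and the HPB-ALL libraries, without overlap, in 27 of the 38 genes that differed (71.1%), where this held for 50.6% of all genes that differed. The share over all genes was not matched for expression level. Without libraries 1, 2 and 3, the log2 difference was 1.24 for CCNB1, 1.19 for HMMR, 1.19 for TTK, 0.96 for CENPA, 0.81 for CDC20 and -0.91 for CDC25B. Without libraries 4, 5 and 6, it was 0.64 for CCNB1, 0.66 for HMMR, 0.50 for TTK, 0.43 for CENPA, 0.46 for CDC20 and -0.56 for CDC25B. The direction was the same in both cases for these genes. The counts were 35 higher in HPB-ALL and 3 higher in KOPTK1 in the first case, with INCENP gained and CDC25C lost, and 32 and 3 in the second, with PRC1, NCAPG and SMC2 lost. Leaving out a set of HPB-ALL libraries moved the larger differences less: CCNB1 was at 0.89 and CDC20 at 0.55 without libraries 7, 8 and 9, and at 0.93 and 0.70 without libraries 10, 11 and 12. Without libraries 7, 8 and 9, 36 genes were higher in HPB-ALL and 2 in KOPTK1, with SPC24 and KIF11 gained and CDC25C and TOP2A lost. Without libraries 10, 11 and 12 the counts were 30 and 3, with FOXM1 gained and CDC25C, BIRC5, PRC1, ESPL1, NCAPG and SMC4 lost. Within a line, the highest library exceeded the lowest by a median factor of 1.14 in KOPTK1 (1.04 to 1.67 over the 48 genes) and 1.09 in HPB-ALL (1.03 to 1.36), and 35 genes were more widely spread in KOPTK1. Over all tested genes at 10 CPM or more, the same medians were 1.21 and 1.12. The widest spreads were those of CENPA, TTK and INCENP in KOPTK1 and of CENPA, SPC24 and PLK1 in HPB-ALL.

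**Figure D4:**
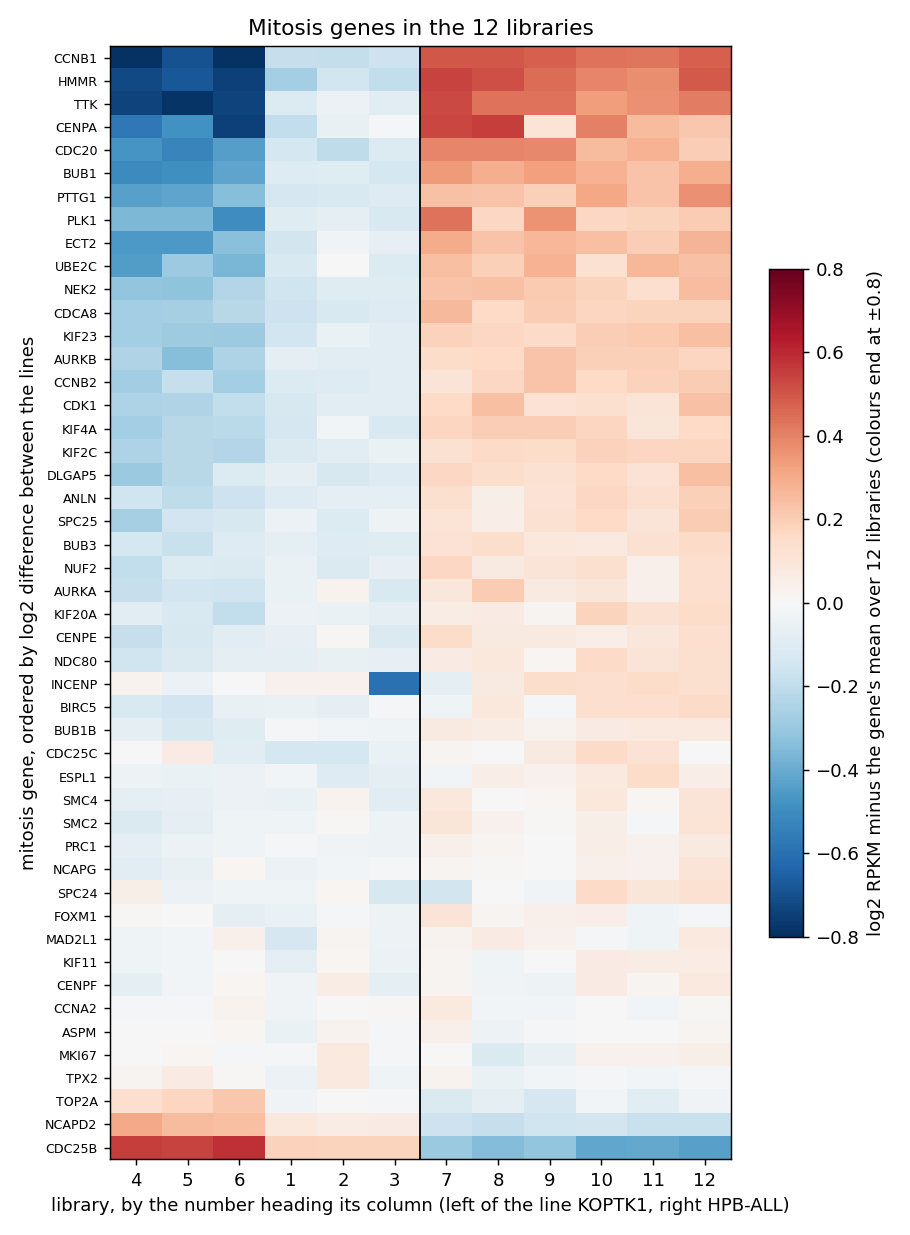
Level of each mitosis gene (rows, ordered by the log2 difference between the lines) in each of 12 libraries (columns), as log2 RPKM minus the mean of the gene over the 12 libraries. Libraries 4, 5 and 6 are blue at the top and red at the bottom, the HPB-ALL libraries show the opposite, libraries 1, 2 and 3 are intermediate, and the low value of INCENP in library 3 stands alone.

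Genes of the same machinery outside the 48 were less one-sided. Of 88 such genes, all tested, 43 were higher in HPB-ALL, 24 higher in KOPTK1 and 21 did not pass the test. Their median log2 difference of 0.07 was close to that of all tested genes at 10 CPM or more. Among the latter genes 46.0% were higher in HPB-ALL and 31.9% in KOPTK1, near the shares of the 88. The counts of the short lists below have to be read beside these shares. Other kinetochore genes (13 of 20 higher in HPB-ALL, 3 higher in KOPTK1) and other motors and spindle proteins (11 and 2 of 17) had medians of 0.20 and 0.21. CEP55, a protein of the cytokinetic midbody, was at a median of 57.6 RPKM in HPB-ALL and 37.8 in KOPTK1 (log2 difference 0.60 ± 0.08). Cohesin genes leaned the other way, with 3 of 12 higher in HPB-ALL and 7 in KOPTK1, among them the core subunit SMC3 (log2 difference -0.55 ± 0.06). SGO2, which protects centromeric cohesion, was the exception at 0.87 ± 0.14. The anaphase-promoting complex was divided, 6 of 16 higher in HPB-ALL and 5 in KOPTK1, between -0.36 and 0.37. Of the 4 other condensin genes 3 were higher in HPB-ALL and 1 in KOPTK1, and of 8 other regulators of mitotic entry 3 and 2. Among 11 B-MYB-MuvB and DREAM genes, which control the transcription of the set, 4 were higher in each line and 3 did not pass the test. The pocket proteins RBL1 and RBL2 (p107 and p130), which repress G2/M genes outside these phases, were at medians of 25.4 and 38.7 RPKM in KOPTK1 and 14.0 and 21.9 in HPB-ALL (log2 differences -0.86 ± 0.08 and -0.83 ± 0.08). E2F5, a DREAM subunit, had the largest difference of the list and went the other way, at 10.7 to 12.5 RPKM in HPB-ALL and 3.98 to 7.60 in KOPTK1 (log2 difference 0.98 ± 0.15). LIN52 (0.37 ± 0.05), E2F4 (0.20 ± 0.06) and TFDP1 (0.13 ± 0.03), also of DREAM, were higher in HPB-ALL as well. LIN54 (-0.55 ± 0.06) and LIN9 (-0.12 ± 0.05), of the same list, were higher in KOPTK1. MYBL2 (B-MYB), which activates G2/M genes, did not pass the test (log2 difference -0.05 ± 0.02, edgeR adjusted p = 0.0678).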

How the data were processed

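RNA-Seq libraries of HPB-ALL and KOPTK1 cells (12 in all, 3 for each of 4 groups by the labels) were analysed from 1 deposited table per line. Per the labels, the authors used Trimmomatic 0.36, STAR 2.5.4b, Picard 2.18.7, featureCounts 1.6.2 and edgeR 3.22.3 with hg38. The deposited per-library values are expected counts per gene, not normalized: they include fractions and sum to different totals in each library, although the name of the tables says RPKM. The authors also deposited the summed exon length of each gene and their own comparison (log2 fold change, average log2 CPM, F, p-value and FDR), which was not used. Strandedness of the libraries is not given in the sources used here, so reads of overlapping antisense genes cannot be told apart. Columns were assigned to a line through the labels. Their numbers match no shRNA or replicate, so the tests of SHQ1 knockdown that had been planned were not run.

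Counts were rounded, the tables joined by gene, and genes filtered with filterByExpr, leaving 27834 of 58288. HPB-ALL (6 libraries) was compared with KOPTK1 (6) by edgeR 4.0.16 (TMM, quasi-likelihood test, two-sided, R 4.3.3) without covariates, with Benjamini-Hochberg adjustment over all tested genes and calls at 0.05. The standard error was the log2 difference divided by the root of F. RPKM was computed from counts, TMM library sizes and exon length, and no mitosis gene had under 288 counts in a library, so counting error was small. Principal components used log2(CPM + 0.5). The step was tested on simulated data for HPB-ALL against KOPTK1 in 2 draws (27478 and 27472 genes, 200 changed in each): 93% and 94% of genes changed 2-fold and 77% and 69% of those changed 1.5-fold were recovered, and 5.03% and 7.39% of calls were false. The simulated libraries were independent, with as many genes raised as lowered. In the real data 63.9% of tested genes differed and libraries fell into sets of 3, so these rates may not hold there. Alternatives were size factors by median of ratios, no filter, a mean of at least 10 CPM, DESeq2 1.42.0, a minimum of 1.5-fold and leaving out each library. Leaving out each set of 3 libraries (1 to 3, 4 to 6, 7 to 9 or 10 to 12) was added after seeing the data.

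The genes followed, their role groups, the lists of other genes and the markers were chosen with earlier results of these data known. Values are given for CDK1, cyclins, kinases, checkpoint and other core genes set by name, the 5 largest differences in each direction among the genes called (only 3 were higher in KOPTK1), the 3 highest and lowest levels and the 3 widest spreads in each line. CD2, CD79A, CEP55, SMC3, SGO2, RBL1, RBL2, E2F5, LIN52, E2F4, TFDP1, LIN54, LIN9 and MYBL2 were chosen from their lists after their values were seen. Symbols were matched to 95.9% of identifiers. Promoter letters were searched in RefSeq windows of GRCh38.p14, the build of the tables. A GRCh37 genome was not used.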

Additional observations from a re-analysis of the deposited data

Results flagged for a closer look

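In groups of 6 libraries, a library is named here when its gap to the nearest other exceeded the share of the group's range set by the 95% critical value of Dixon's test. Chance alone names about 1 in 20 groups of independent, normally distributed values. Libraries within a line fell into sets of 3, so this rate is only a rough guide here. Of 96 groups (48 mitosis genes in each line), 8 (8.33%) were named, against 3.57% of the groups of all tested genes at 10 CPM or more. The widest gap was that of INCENP in KOPTK1, where library 3 was at 29.58 RPKM and the other 5 libraries were at 43.3 to 45.8 RPKM. Library 3 was the low library by the same measure in 117 of 11553 tested genes at 10 CPM or more (1.01%), the most of any library, and it had the most genes with a count (41322). The part of the library in the INCENP value was not tested.

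INCENP was also low in HPB-ALL library 7, at 42.29 RPKM against 47.0 to 49.5 in the others. CCNA2 was high in HPB-ALL library 7, at 75.93 RPKM against 70.7 to 72.2. KIF4A was low in HPB-ALL library 11, at 26.37 RPKM against 27.6 to 28.3. DLGAP5 and NCAPG were high in HPB-ALL library 12, at 35.88 RPKM (others 32.9 to 34.0) and 42.91 RPKM (others 40.0 to 41.1). MKI67 and SMC4 were high in KOPTK1 library 2, at 97.28 RPKM (others 91.1 to 93.0) and 71.66 RPKM (others 66.2 to 68.2). Apart from INCENP in KOPTK1, these gaps were small beside the level of the gene.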

How the results depend on the processing

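Each mitosis gene was refitted under 20 alternatives, all but the minimum of 1.5-fold, which gave 960 values. Of these, 895 had the same sign and call, 16 (9 genes near 0) changed sign without passing the test in either fit, 35 lost the call, 12 gained it, and 2 passed with the opposite sign: CCNA2 (-0.058) and ASPM (-0.059), with a mean of at least 10 CPM. For 30 of the 48 genes none of the 20 changed the call or the sign. With at least 10 CPM, 7 mitosis genes were higher in KOPTK1, and 9029 of all genes differed because fewer were tested. With a minimum of 1.5-fold, 6 mitosis genes differed, 5 higher in HPB-ALL and 1 in KOPTK1, and 8104 of all genes. Mitosis genes higher in HPB-ALL and in KOPTK1 numbered 35 and 3 with median-of-ratios size factors, 39 and 2 without a filter, 37 and 3 with DESeq2, and 33 to 35 and 3 with each library left out in turn (16926 to 18346 of all genes). Leaving out 1 library changed the call of 2 genes only: CDC25C, with libraries 1, 2, 3, 6, 7, 9, 10 or 11 (log2 difference 0.10 to 0.12), and NCAPG, with libraries 1, 2, 4, 5, 7, 10, 11 or 12 (0.05 to 0.07). No paired analysis was possible because the library columns carry no replicate numbers. The separation of sets of 3 libraries within a line widens the standard errors of the genes in which they differ, and libraries of a set are not independent of each other, so p-values may be too small. Small differences were not settled: TOP2A (-0.16), CDC25C (0.12), ESPL1 (0.11), SMC4 (0.10), SMC2 (0.09), PRC1 (0.08) and NCAPG (0.07) each lost the call under a filter alternative.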

Other observations

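SHQ1, the target of the knockdown, was at 71.5, 72.5 and 71.4 RPKM in HPB-ALL libraries 7, 8 and 9 and at 47.5, 46.0 and 48.9 RPKM in libraries 10, 11 and 12. In KOPTK1 it was at 45.4, 44.2 and 45.7 RPKM in libraries 1, 2 and 3 and at 41.8, 41.7 and 39.5 RPKM in libraries 4, 5 and 6. The values of each line therefore fell into separate clusters of 3, further apart in HPB-ALL. Over all 6 KOPTK1 libraries SHQ1 spanned only 39.5 to 45.7 RPKM. No library was assigned to an shRNA from these values, so the extent of SHQ1 depletion was not measured. These clusters are the same sets of 3 libraries for which levels of mitosis genes are given above. No test was made between the sets of a line.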
